A study of Mus musculus with 12 samples.

Results

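Cytokine genes of T helper 2 (Th2) cells and their close relatives were examined in mouse Th2 cells, the helper T cells of allergic inflammation. The set was given by name: Il4, Il5, Il13, Il9, Il10, Areg, Il3, Csf2 and Il6. All 9 members had a row among the 25700 rows of the RNA table. Open chromatin was read at the same genes, which gave 76 open regions of 114469 in all. The groups were cells labelled cKO (conditional knockout) and cells labelled WT, with 3 RNA-seq and 3 ATAC-seq libraries per genotype. NRF2, the antioxidant factor encoded by Nfe2l2, appears in the series title, and the series' design describes mouse models of allergic asthma. The deleted gene or exon, the Cre driver, the strain, the age and the tissue of origin are not given in the labels. The labels also do not say whether replicates came from separate animals, so the p-values here measure the spread between these libraries only.

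Th2 cytokines act together in allergic tissue. IL-4 drives further Th2 differentiation and IgE switching, IL-5 feeds eosinophils, and IL-13 acts on airway epithelium and smooth muscle. IL-9 acts on mast cells, amphiregulin (Areg) signals through the epidermal growth factor receptor in tissue repair, and IL-10 restrains inflammation. IL-3 and GM-CSF (Csf2) are growth factors of myeloid cells, and IL-6 is a broad inflammatory signal that also instructs helper T cells. Il4, Il13 and Il5 lie in 1 cluster on chromosome 11, where the DNA repair gene Rad50 stands between Il13 and Il5 and holds a locus control region. Il3 and Csf2 are neighbours further along the same chromosome.

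RNA totals ran from 6431080 to 7372010 normalized counts per library, and ATAC libraries held 13149952 to 18327127 tags. WT replicate 2 stood apart in ATAC-seq, with 25.22% of its tags in peaks, against 34.87% to 38.28% in the other 5 libraries. Nfe2l2 RNA was at 452.83, 326.42 and 391.53 normalized counts in cKO-labelled libraries and at 169.92, 155.3 and 147.37 in WT libraries (log2 change 1.29, limma adjusted p = 0.0438). It was thus higher in every library labelled cKO, so the directions given here rest on the labels, and the table's 1 value per gene does not separate transcripts with a deleted exon. Ddx3y, a Y-linked gene, was listed at 0 in all cKO-labelled libraries and at 140.49, 123.38 and 131.73 in WT libraries, so genotype and sex cannot be told apart in the RNA data. Summed T cell markers (10 of 10 in the table) overlapped, at 17391.7 to 24548 in cKO-labelled libraries and 18491.5 to 21402 in WT libraries. Singly, 7 of the 10 had positive and 3 negative log2 changes, against 55.0% of all tested genes that were positive. Cd3e was higher without overlap (log2 change 0.34, limma adjusted p = 0.439) and Cd3d lower without overlap (-0.46, 0.206). Cd4 had a change of 0.63 with overlap (0.259). Of the Th2 markers, Gata3, Ccr4 and Ccr8 were present in every library, with Gata3 at 589.85 to 803.25 in cKO-labelled libraries and 687.87 to 754.84 in WT libraries. Il1rl1, the IL-33 receptor gene, was low, at 15.61 to 21.95 in cKO-labelled libraries and 19.53 to 37.21 in WT libraries. Ptgdr2 was listed at 0 in 1 of the cKO-labelled libraries and all 3 WT libraries, and Il17rb was low, at 0 to 0.95 in cKO-labelled libraries and 5.49 to 8.48 in WT libraries, without overlap. Ccr8, a chemokine receptor gene, was higher without overlap, at 231.86 to 356.43 in cKO-labelled libraries and 159.15 to 203.81 in WT libraries (limma adjusted p = 0.295).

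The promoters of the 5 members whose RNA was lower in every cKO-labelled library than in any WT library are shown with that of Csf2, whose flanks held 3 regions with changed accessibility. Each runs 5′ to 3′ along the gene, from 250 bases before the start to 50 bases after it, on the GRCm38.p6 build of RefSeq. Promoters were found for 8 of the 9 members, Il10 being the exception. Capitals mark the letters GATA on either strand (read as TATC on the other), the core of the sites bound by the Th2 factor GATA3, and the core of the antioxidant response element, TGACNNNGC on either strand, the kind of site that NRF2 binds.
Il13 (chr11:53634653-53634952, minus strand): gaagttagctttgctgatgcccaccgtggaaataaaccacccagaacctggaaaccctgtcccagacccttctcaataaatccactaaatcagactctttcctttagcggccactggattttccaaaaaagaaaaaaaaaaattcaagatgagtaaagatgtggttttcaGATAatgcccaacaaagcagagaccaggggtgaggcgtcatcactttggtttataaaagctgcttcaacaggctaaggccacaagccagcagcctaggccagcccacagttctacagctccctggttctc
Il9 (chr13:56482208-56482507, minus strand): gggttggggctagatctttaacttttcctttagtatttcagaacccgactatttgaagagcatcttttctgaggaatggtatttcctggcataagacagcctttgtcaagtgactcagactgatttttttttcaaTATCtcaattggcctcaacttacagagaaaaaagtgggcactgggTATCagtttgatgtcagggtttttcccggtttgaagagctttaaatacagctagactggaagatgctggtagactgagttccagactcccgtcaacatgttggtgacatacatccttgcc
Areg (chr5:91139349-91139648, plus strand): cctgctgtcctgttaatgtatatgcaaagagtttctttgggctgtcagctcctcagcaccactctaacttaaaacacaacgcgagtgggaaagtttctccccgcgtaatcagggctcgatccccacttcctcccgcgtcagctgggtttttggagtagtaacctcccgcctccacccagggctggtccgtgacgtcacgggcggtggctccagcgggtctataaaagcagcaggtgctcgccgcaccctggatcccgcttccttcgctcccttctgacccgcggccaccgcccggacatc
Il3 (chr11:54267230-54267529, minus strand): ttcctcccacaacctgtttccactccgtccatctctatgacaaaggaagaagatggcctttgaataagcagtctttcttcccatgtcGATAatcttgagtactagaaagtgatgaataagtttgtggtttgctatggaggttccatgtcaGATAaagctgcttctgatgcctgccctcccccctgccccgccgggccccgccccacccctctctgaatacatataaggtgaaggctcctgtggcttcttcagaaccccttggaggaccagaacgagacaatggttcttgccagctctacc
Il6 (chr5:30012864-30013163, plus strand): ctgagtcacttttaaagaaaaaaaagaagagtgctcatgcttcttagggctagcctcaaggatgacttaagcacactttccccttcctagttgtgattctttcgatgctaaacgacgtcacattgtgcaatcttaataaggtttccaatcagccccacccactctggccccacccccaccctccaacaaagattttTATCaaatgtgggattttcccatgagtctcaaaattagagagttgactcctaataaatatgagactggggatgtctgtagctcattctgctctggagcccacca
Csf2 (chr11:54249850-54250149, minus strand): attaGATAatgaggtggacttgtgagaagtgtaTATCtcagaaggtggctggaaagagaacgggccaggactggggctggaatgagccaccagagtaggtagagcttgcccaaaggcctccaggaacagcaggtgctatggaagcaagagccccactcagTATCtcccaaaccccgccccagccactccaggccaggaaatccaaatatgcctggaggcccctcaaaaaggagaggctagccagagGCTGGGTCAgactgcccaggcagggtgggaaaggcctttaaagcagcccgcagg

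GATA was the common element, present in 7 of the 8 promoters and missing from this window of Areg. GATA is short, and 57.9% of the 32851 promoters of the same length held it. With the start base at 0, its first base lay at -80 in Il13, at -115 and -70 in Il9, at -163 and -100 in Il3, at -54 in Il6 and at -246, -217 and -90 in Csf2. In the promoters not printed it lay at 15 in Il4 and at -71 in Il5. The antioxidant response core was found in Csf2 alone of the 8, at -4, against 12.4% of all promoters. The AP-1 letters TGANTCA, which are not in capitals, were found at -140 in Il9 and at -249 in Il6, against 7.81% of all promoters. None of these matches overlapped another. Such matches describe letters and do not show binding.

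Every tested cytokine member had less RNA in the cKO-labelled libraries, and Il9, Il6, Areg and Il13 had log2 changes of -1 or below in limma. In the authors' deposited table the changes of these 4 were also negative but mostly smaller, at -2.86, -0.17, -0.76 and -0.96 in that order. A gene was tested if its mean over the 6 libraries reached 10 normalized counts, which kept 7 members and left out Il4 and Il5. None of the 7 passed an adjusted p of 0.05 in limma, a threshold that 0.205% of 18074 tested genes passed, 0.172% as lower. At an unadjusted p of 0.05, 5 members were lower, against 6.05% of all tested genes. Values did not overlap between genotypes for the same 5 (Il13, Il9, Areg, Il3 and Il6), against 9.76% of all genes that were lower without overlap. None was higher without overlap, against 7.4% of all genes. The median log2 change of the 7 was -1.04, against 0.06 for all tested genes. All 7 changes were negative, against 45.0% of all genes, and 4 were at or below -1, against 3.03%. In these bulk libraries, fewer cells that make a cytokine and less RNA per cell cannot be told apart. Members are short genes, with spans of 2195 to 8834 bp, and the 2989 tested genes of such spans had a median change of -0.04 and 17.1% lower without overlap, against a median of 0.08 for the 11124 longer genes.

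**Figure D1:**
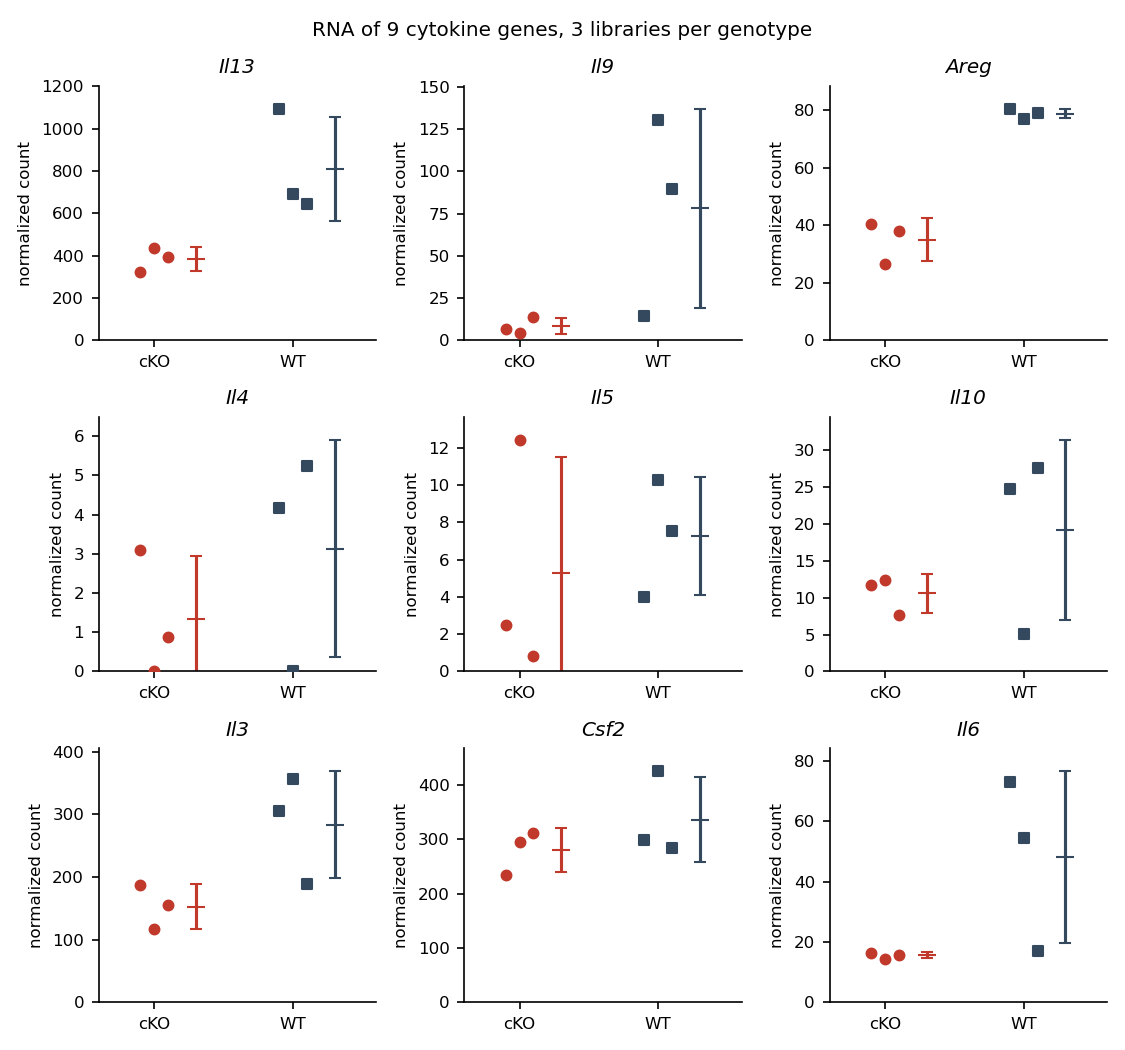
RNA of each cytokine gene in normalized counts (vertical axes from 0, a separate scale per gene), with cKO-labelled libraries as circles and WT libraries as squares. Bars are mean ± SD (n = 3 each), cut at 0. The cKO values lie below all WT values for Il13, Il9, Areg, Il3 and Il6.

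Il13 had the smallest limma p of the set. Its normalized counts were 322.44, 438.09 and 393.61 in cKO-labelled libraries and 1092.55, 693.02 and 644.6 in WT libraries. All cKO-labelled libraries lay below the lowest WT library, and the WT values were spread more widely, with replicate 1 highest. The mean of 384.7 ± 58.3 in cKO-labelled libraries was 0.475 times the 810.1 ± 245.8 of WT libraries (SD, n = 3 each), with a log2 change of -1.04 (SE 0.225, limma adjusted p = 0.0834). In the authors' deposited table the log2 change of Il13 was -0.96 with an adjusted p of 0.00104, below 0.05. Il9 had no adjusted p there, and its unadjusted p of 8.62e-06 was just below the 8.9e-06 of Il13. Of the 9 members, 3 have an adjusted p in the authors' deposited table, and Il13 alone of them passed, where 3.9% of genes with such a value passed as lower and 1.78% as higher.

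The other cytokines of the Th2 cluster were close to undetected. Il4 was at 3.11, 0 and 0.89 normalized counts in cKO-labelled libraries and at 4.16, 0 and 5.24 in WT libraries. Il5 was at 2.51, 12.4 and 0.85 in cKO-labelled libraries and at 3.97, 10.26 and 7.53 in WT libraries. Groups overlapped for both genes, and replicate 2 of each genotype held the highest Il5 value and an Il4 value of 0. Two-sided exact permutation tests gave p = 0.6 for Il4 and p = 0.5 for Il5, where 3 against 3 libraries cannot go below 0.1. Differences in Il4 and Il5 were not detectable at these levels.

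Il9 had the largest change among the members. Its values were 6.87, 4.41 and 13.71 normalized counts in cKO-labelled libraries and 14.62, 130.31 and 89.52 in WT libraries. The groups did not overlap, but WT replicate 1 lay just above the highest cKO-labelled library and far below the other WT libraries. The log2 change was -2.74 (SE 0.77, limma adjusted p = 0.163). Without WT replicate 1 it was -3.67 with an adjusted p of 0.0275, the only setting run in limma in which a member passed. Il9r, the gene of its receptor, was at 7.19, 5.89 and 16.42 in cKO-labelled libraries and 12.54, 9.36 and 121.94 in WT libraries, so that WT replicate 3 stood far above the other 5 libraries.

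Areg showed the tightest WT group. It was at 40.3, 26.55 and 38.09 normalized counts in cKO-labelled libraries and at 80.17, 77.0 and 78.86 in WT libraries. The cKO-labelled libraries all lay well below the WT libraries, at 0.445 times the WT mean (log2 change -1.17, SE 0.36, limma adjusted p = 0.202). Il10 was low in both genotypes, at 11.74, 12.39 and 7.61 in cKO-labelled libraries and 24.76, 5.13 and 27.56 in WT libraries. WT libraries held both the highest and the lowest Il10 value, so the groups overlapped (log2 change -0.54, SE 0.76, adjusted p = 0.824). Without WT replicate 2 the change was -1.25 (adjusted p = 0.453), without WT replicate 1 -0.22 (0.938) and without WT replicate 3 -0.14 (0.967).

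Il3 and its neighbour Csf2 differed in pattern. Il3 was at 186.73, 116.47 and 155.37 normalized counts in cKO-labelled libraries and at 305.57, 355.52 and 188.83 in WT libraries. The highest cKO-labelled library and the lowest WT library were nearly level, without overlap (log2 change -0.86, SE 0.287, limma adjusted p = 0.241). Il3 missed 0.05 in the authors' deposited table, with -0.64 on the log2 scale and an adjusted p of 0.0559. Csf2 was at 234.41, 295.15 and 312.0 in cKO-labelled libraries and at 299.26, 425.6 and 283.34 in WT libraries. Its groups overlapped, with WT replicate 2 standing above the other 5 libraries (log2 change -0.25, SE 0.23, limma adjusted p = 0.711). Whether Il3 and Csf2 differed in their change was not tested.

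Il6 was low and even in the cKO-labelled libraries, at 16.33, 14.41 and 15.84 normalized counts, against 72.81, 54.44 and 17.06 in WT libraries. WT replicate 3 lay barely above the cKO-labelled libraries and the other WT libraries well above them (log2 change -1.35, SE 0.58, limma adjusted p = 0.377). Without WT replicate 3 the change was -1.95 (adjusted p = 0.331), and without WT replicate 1 it was -0.94 (0.534). Summed over the 9 members, normalized counts were 824.5, 919.9 and 938 in cKO-labelled libraries and 1897.9, 1751.3 and 1342.5 in WT libraries, a sum in which Il13 and Csf2 weigh most. The WT library with the highest value differed by gene. It was replicate 1 for Il13, Areg and Il6, replicate 2 for Il9, Il3, Csf2 and Il5, and replicate 3 for Il10 and Il4.

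Markers of other cell types, some of which can make these cytokines, were compared as sums of normalized counts. Of 12 markers of mast cells, basophils and eosinophils, 4 were in the table (Siglecf, Gata2, Cpa3 and Cma1), with sums of 69.7 to 102 normalized counts in cKO-labelled libraries and 35 to 103.6 in WT libraries. Siglecf was higher without overlap, at 26.66 to 39.27 in cKO-labelled libraries and 19.54 to 23.58 in WT libraries (limma adjusted p = 0.681). Gata2 overlapped, at 29.39 to 65.54 in cKO-labelled libraries and 15.49 to 68.04 in WT libraries. The mast cell protease genes Cpa3 and Cma1 did not exceed 5.32 in any cKO-labelled library. They were listed at 0 in 2 of the WT libraries and were highest in WT replicate 2, at 5.37 and 7.73. For NK cells, CD8 T cells and gamma delta T cells, sums of 5 of 6 markers were 82 to 108.3 in cKO-labelled libraries and 115.3 to 130.5 in WT libraries, without overlap. Cd8b1 weighed most in these sums and itself overlapped, at 72.03 to 80.58 in cKO-labelled libraries and 67.41 to 117.93 in WT libraries. Myeloid marker sums (8 of 11 in the table) were 101.7 to 145.9 in cKO-labelled libraries and 104.7 to 206 in WT libraries. B cell marker sums (6 of 6) were 251.5 to 383 in cKO-labelled libraries and 185.5 to 482.4 in WT libraries. Epithelial marker sums (3 of 6) were 118.3 to 184.4 in cKO-labelled libraries and 123 to 207.1 in WT libraries. The part of these cells in the cytokine values was not tested.

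The genes most like each member over the 6 RNA libraries were taken from 10621 genes with a mean of at least 50, by Pearson correlation of log2 values. For Il13 they were Vdac3, a mitochondrial channel, the splicing factor gene Phf5a and the deubiquitinase gene Uchl5 (each with r = 0.99). For Il9 they were Mboat1, Dnajc2 and Mcrip2, and for Areg Pdcd2, the RNA export adaptor gene Alyref and Cip2a. Il3 was most like Emc7 and Emc8, which encode subunits of a membrane protein insertion complex, and Cd160. Il6 was most like Cgrrf1, Smarce1 and Cnpy2, Il10 like Tyw3, Btf3l4 and Pomk, and Csf2 like Pnkd, Mrps10 and Tmem251. With 6 points and so many genes, high values of r are found for any gene, and they describe these libraries only.

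Receptors and signal carriers of the member cytokines lay on the other side of 0. Of 20 tested genes, 19 had positive log2 changes with a median of 0.46, against 55.0% of all genes that were positive. In limma 0 passed an adjusted p of 0.05, as 0.0332% of all genes did as higher, and 8 were higher at an unadjusted p of 0.05, against 6.05% of all genes. Egfr, through which amphiregulin signals, was at 492.92, 245.85 and 383.61 normalized counts in cKO-labelled libraries and at 226.73, 214.87 and 121.1 in WT libraries. All cKO-labelled libraries lay above the WT libraries (log2 change 0.99, limma adjusted p = 0.201), and Egfr passed as higher in the authors' deposited table (adjusted p = 0.0332). The next were Stat5a (log2 change 0.58), a carrier of IL-3 and GM-CSF signals, the kinase gene Tyk2 (0.71) and the IL-6 receptor gene Il6ra (0.52), with adjusted p of 0.242, 0.304 and 0.349 in limma. Il9r was the 1 member with a negative change.

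Transcription factors known to act at Th2 cytokine genes were mostly positive too, and Gata3 was level. Of 22 tested, 18 had positive log2 changes, against 55.0% of all genes, the median was 0.39 and 0 passed in limma or in the authors' deposited table. At an unadjusted p of 0.05, 3 were higher, against 6.05% of all genes. Nfatc1, an activation-induced factor, had a log2 change of 0.70 (adjusted p = 0.240), Irf4 of 0.60 (0.245), Tcf7 of 0.52 (0.351) and the chromatin organizer gene Satb1 of 0.40 (0.428). Values of these 4 overlapped between genotypes. Gata3, the factor that sets Th2 fate, had a log2 change of 0.00 (adjusted p = 0.995).

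Other T cell cytokines had changes in both directions. Of 18 tested, 12 had positive and 6 negative changes, with a median of 0.11. In limma 0 passed, and at an unadjusted p of 0.05, 3 were higher and 2 lower, against 6.05% of all genes each way. Values did not overlap for 2 higher and 3 lower genes, against 7.4% and 9.76% of all. Csf1, the macrophage growth factor gene, was at 601.32, 557.01 and 717.38 normalized counts in cKO-labelled libraries and at 371.57, 237.61 and 285.49 in WT libraries (log2 change 1.08, limma adjusted p = 0.065). Il1a was at 147.04, 84.16 and 101.29 in cKO-labelled libraries and at 268.12, 293.52 and 210.01 in WT libraries (log2 change -1.23, limma adjusted p = 0.0899). Groups did not overlap for either gene, and both passed in the authors' deposited table, with adjusted p of 0.00058 for Csf1 and 0.00372 for Il1a. Il22, a cytokine that acts on epithelium, was at 1.68, 0 and 0 in cKO-labelled libraries and at 12.85, 26.96 and 30.01 in WT libraries (limma adjusted p = 0.129). Il16 had a log2 change of 0.63 (adjusted p = 0.265).

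Genes next to the Th2 cluster had changes in both directions. The list held 10 tested genes, 5 positive and 5 negative, with a median log2 change of 0.02, and in limma 0 passed. Ccni, 1 of 2 list genes with an unadjusted p under 0.05, against 6.05% of all genes each way (log2 change 0.82, adjusted p = 0.137), lies on chromosome 5 and is no neighbour. It passed as higher in the authors' deposited table (adjusted p = 0.0195), and the 9 others had a median of -0.02. The chaperone gene Hspa4, the other of the 2, was at 2111.1, 2236.73 and 2417.07 normalized counts in cKO-labelled libraries and at 3285.05, 2432.82 and 3118.98 in WT libraries. It was lower without overlap (log2 change -0.38, limma adjusted p = 0.338). The septin gene Septin8 had a change of 0.58 (adjusted p = 0.492) and the respiratory chain gene Uqcrq of -0.30 (0.576). Rad50, between Il13 and Il5, was at 429.49, 332.73 and 425.83 normalized counts in cKO-labelled libraries and at 527.6, 270.51 and 377.61 in WT libraries, with overlap.

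**Figure D2:**
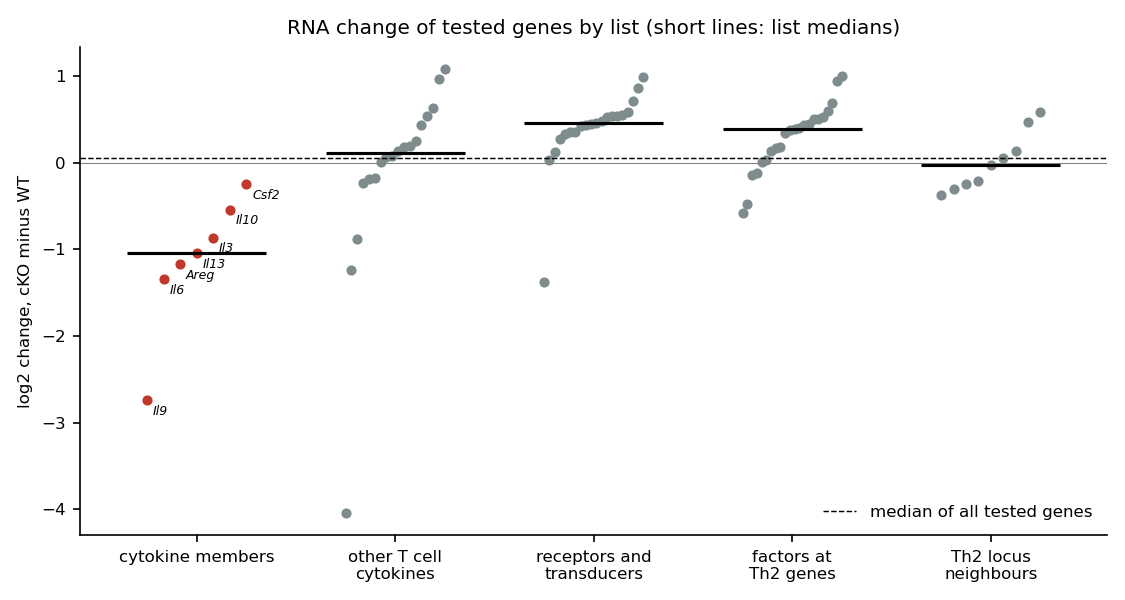
Log2 change of RNA (cKO minus WT, vertical axis) for each tested gene of the cytokine set and of 4 other lists, with list medians as short lines and the median of all tested genes dashed. The 7 tested members lie below 0, with a median of -1.04, while the receptor and factor lists have medians of 0.46 and 0.39.

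Open chromatin was then read at the cytokine genes. Peaks of the 6 ATAC lists that shared at least 1 bp were merged into regions. The height of a region is the tag count of its highest peak per 10000000 tags of the library, called tags here. Peaks differ in length and this count is not divided by length, so the tallest region is the one with most tags. Values per kb of peak are given where stated. A region was called changed at an adjusted p of 0.05 in limma on quantile-normalized log2 heights, among 33531 regions with a peak in all 6 lists. A window over the Th2 cluster, from Kif3a to Irf1, and windows of 30 kb around the other members held 76 regions, 43 of them in all 6 lists. Of the 43, 4 were called higher and 1 lower, against 3.67% and 4.33% of all regions, and 26 had positive log2 changes, against 52.5% of all. Values did not overlap for 7 higher and 10 lower regions, against 13.6% and 21.8% of all. The share called higher was above that of all regions, and 3 of those 4 flank 1 gene, Csf2, while the other shares were close to those of all regions.

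At the Th2 locus 0 of 16 shared regions passed in limma. At an unadjusted p of 0.05, 5 were higher and 1 lower, against 14.8% of all regions that were higher. The share of all regions that were lower at that p was not computed. Values did not overlap for 4 higher and 5 lower regions of the locus, against 13.6% and 21.8% of all regions. The tallest open region at a member was the one over the Il13 start (chr11:53634097-53636981). Its heights were 222.8, 228.7 and 222.8 tags in cKO-labelled libraries and 196.3, 98.8 and 177.2 in WT libraries. All cKO-labelled libraries were higher than the WT libraries, with WT replicate 2 lowest, while Il13 RNA was lower in every cKO-labelled library. After quantile normalization the log2 change was 0.26 (SE 0.107, adjusted p = 0.138). With library medians subtracted instead it was 0.88 (adjusted p = 0.000108), a scaling under which the median change of all regions was 0.16, against 0.02 after quantile normalization.

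No region covered the start of Il4 or of Il5 in any list. Inside Il4, a region at chr11:53617176-53618109 was called in 3 lists, at a height of 12.9 in cKO replicate 3 and of 12.8 and 6.55 in WT replicates 1 and 2. Downstream of Il4, 2189 bp from the gene, a region (chr11:53609359-53610271) stood at 15.5, 16.6 and 9.13 in cKO-labelled libraries and at 27.6, 18.6 and 33.8 in WT libraries. The groups did not overlap there (log2 change -0.52, limma adjusted p = 0.233), and unscaled the change was -0.91 (adjusted p = 0.0444). Upstream of Il5, 3335 bp from it, a region (chr11:53716396-53717459) stood at 12.8, 14.1 and 13.7 in cKO-labelled libraries and at 20.4, 26.7 and 21.0 in WT libraries. These too did not overlap (log2 change -0.29, adjusted p = 0.523).

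Rad50 held 4 shared regions. The one over its higher-coordinate end (chr11:53706527-53707833) was at 74.8, 102.9 and 85.9 tags in cKO-labelled libraries and at 74.0, 54.8 and 72.1 in WT libraries (log2 change 0.38, limma adjusted p = 0.0906). A second (chr11:53654780-53657489) was at 47.6, 46.8 and 46.0 in cKO-labelled libraries and at 53.2, 91.1 and 61.2 in WT libraries (log2 change -0.42, adjusted p = 0.394). By height, WT replicate 2 was the lowest library at the first of these and the highest at the second. Height counts only the highest peak. Summed over its peaks, the second region held 76.2, 73.3 and 80.6 tags in cKO-labelled libraries. In WT libraries it held 100, 91.1 and 98.4, with WT replicate 2 lowest of these (log2 change -0.41, limma adjusted p = 0.0546). The other 2 had log2 changes of 0.12 and 0.43, with overlap. The tallest region of the whole window lay over the lower-coordinate end of the interferon response gene Irf1 (chr11:53768229-53771731), at 221.8, 244.2 and 223.2 in cKO-labelled libraries and 172.9, 114.9 and 204.2 in WT libraries (log2 change 0.20, adjusted p = 0.219). With medians subtracted 6 of the 16 locus regions passed as higher, where 28.0% of all regions did. Among the 6 were the Il13 start, the Irf1 region (log2 change 0.83, adjusted p = 8.92e-05) and the Rad50 end (0.69, adjusted p = 0.0011). Unscaled, 2 of the 16 passed as lower, where 9.03% of all regions did. These were the region downstream of Il4 and one inside Irf1 (chr11:53773936-53775430, log2 change -1.06, adjusted p = 0.02).

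**Figure D3:**
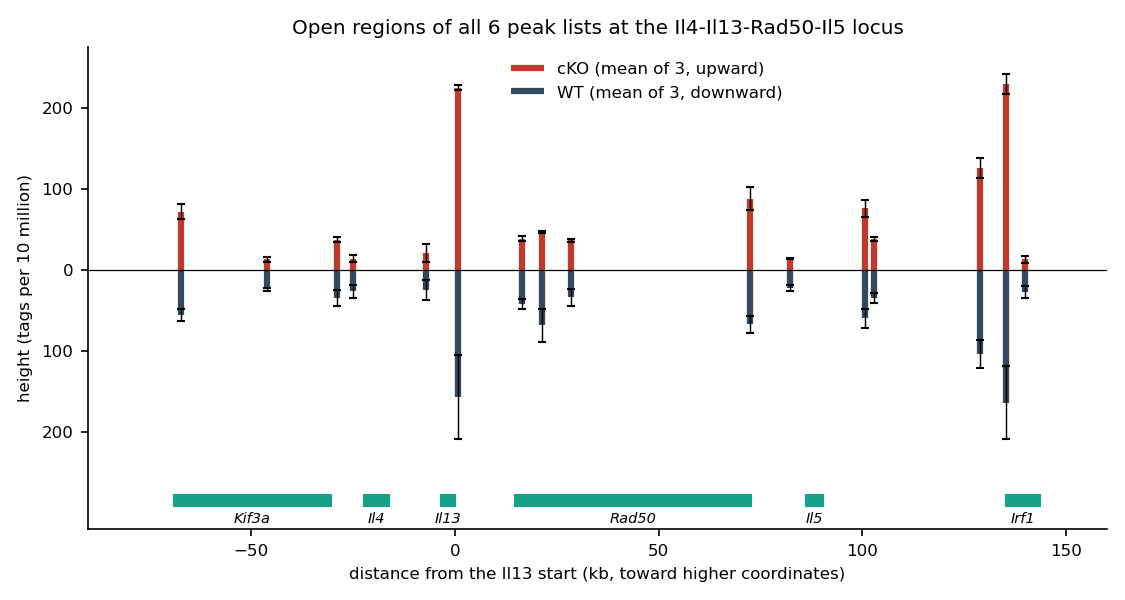
Mean height of the 16 shared open regions of the Th2 locus in tags per 10000000, with cKO upward and WT downward (bars ± SD, n = 3 each), against distance from the Il13 start in kb. Gene spans are drawn below. The regions at the Il13 start and at Irf1 are the tallest, and 0 of the 16 passed the adjusted p.

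Around Csf2, 3 regions rose in the cKO-labelled libraries although its RNA overlapped between genotypes. The nearest (chr11:54251138-54252504), centred at -1922 bp from the start, was at 22.8, 21.4 and 27.8 tags in cKO-labelled libraries and at 14.3, 9.28 and 12.8 in WT libraries. Its log2 change was 1.30 (SE 0.227, limma adjusted p = 0.0119). Another (chr11:54226080-54227948), 19322 bp beyond the end of Csf2, was at 78.0, 96.7 and 102.3 in cKO-labelled libraries and at 66.8, 47.2 and 52.6 in WT libraries (log2 change 0.76, SE 0.146, adjusted p = 0.0164). The last (chr11:54239708-54241030), 6240 bp beyond the end of the gene, was at 80.0, 69.9 and 69.6 in cKO-labelled libraries and at 47.2, 35.5 and 62.0 in WT libraries (log2 change 0.73, SE 0.169, adjusted p = 0.0282). All cKO-labelled libraries lay above all WT libraries at each of the 3.

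Without cKO replicate 3 all 3 Csf2 regions missed the threshold, with log2 changes of 1.19, 0.66 and 0.73 in the order given and adjusted p of 0.0553, 0.082 and 0.0971. Without cKO replicate 2 the regions 19322 and 6240 bp away had changes of 0.72 and 0.76 and missed with 0.0675 and 0.0769. Calls over all regions numbered 377 to 526 without a cKO library, against 2681 with all 6. Without cKO replicate 1 the region 6240 bp away missed with 0.105 and without WT replicate 1 with 0.0618. Per kb of peak the upstream region had a change of 0.69 (adjusted p = 0.0841) and the region 6240 bp away one of 0.65 (0.0573). Unscaled, the region 6240 bp away had 0.62 (0.084).

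The region over the Csf2 start itself (chr11:54247545-54250297), which covers the promoter shown above with its antioxidant response core, did not follow its flanks. It was at 53.1, 51.9 and 54.4 in cKO-labelled libraries and at 60.8, 53.5 and 60.1 in WT libraries, with overlap (log2 change -0.02, limma adjusted p = 0.954), and its sign turned with medians subtracted (0.18), with summed tags (0.05) and per kb of peak (0.28). A region 205 bp beyond the end of Csf2 (chr11:54246012-54247065) was called in all 3 WT lists, at 18.1, 7.09 and 9.01, and in no cKO list. Such a pattern was found for 2 of the 76 regions, against 2.48% of all regions, and the other was a region near Irf1 (chr11:53754916-53755489). The region over the Il3 start (chr11:54267012-54267910) was at 16.2, 15.5 and 11.8 in cKO-labelled libraries and at 17.4, 8.73 and 19.1 in WT libraries (log2 change 0.42, adjusted p = 0.299).

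At Il9, the region over the start (chr13:56481925-56483025) was low and called in 5 lists, at 7.93 and 11.3 tags in cKO replicates 1 and 2 and at 18.9, 7.64 and 12.0 in WT libraries. Further upstream, centred at -5909 bp from the start, a region (chr13:56487710-56488622) was at 20.4, 23.7 and 16.3 in cKO-labelled libraries and at 47.6, 29.2 and 48.1 in WT libraries. All cKO-labelled libraries were lower, as they were for Il9 RNA, with a log2 change of -0.66 that missed the threshold (SE 0.204, limma adjusted p = 0.0663). It passed in 4 other settings: -0.69 with medians subtracted (adjusted p = 0.0206), -0.99 unscaled (0.0188), -0.67 for summed tags (0.044) and -0.99 per kb of peak (0.0156). It missed with cyclic loess (-0.64, 0.0721), an overlap of at least 200 bp (-0.66, 0.0666) and the replicate block (-0.66, 0.0998). It also missed in each fit that left out a library, with changes from -0.77 to -0.55 and adjusted p from 0.0659 to 0.183. The tallest region of the window, 896 bp beyond the end of Il9 (chr13:56473731-56478381), was at 98.6, 152.9 and 129.3 in cKO-labelled libraries and at 100.8, 66.3 and 155.1 in WT libraries (log2 change 0.15, adjusted p = 0.669). Its change was 0.61 with medians subtracted (adjusted p = 0.0273) and -0.50 per kb of peak.

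Il10 was the member with changes in both directions. A region 18454 bp below the lower-coordinate end of Il10 (chr1:130998760-131001391) fell in cKO-labelled libraries, at 38.6, 42.0 and 32.3 tags, against 80.4, 45.6 and 72.5 in WT libraries (log2 change -0.61, SE 0.160, limma adjusted p = 0.0418). A region 543 bp above the higher-coordinate end (chr1:131025513-131026514) rose, at 24.8, 25.4 and 25.5 in cKO-labelled libraries and 24.9, 13.1 and 17.3 in WT libraries (log2 change 0.86, SE 0.222, adjusted p = 0.0401). The groups were apart in the first region and overlapped in the second, where WT replicate 1 matched the cKO-labelled libraries. Both calls ended per kb of peak (adjusted p = 0.485 and 0.0855), and the second also unscaled (0.276). The first was called in 1 of 6 fits that left out a library, the one without WT replicate 2, and the second in 1 of 6, the one without WT replicate 1. Over those fits the change ran from -0.73 to -0.52 in the first and from 0.80 to 1.01 in the second. The region over the gene (chr1:131020396-131023379) was at 19.3, 26.8 and 16 in cKO-labelled libraries and at 23.0, 60.3 and 56.7 in WT libraries, with overlap (log2 change -0.78, adjusted p = 0.25). Summed over its peaks, tags were 19.3, 34.1 and 16 in cKO-labelled libraries and 44.5, 60.3 and 56.7 in WT libraries, without overlap. The change of this region was -1.05 unscaled (adjusted p = 0.0156), -1.01 for summed tags (0.0233), -1.40 without WT replicate 1 (0.0247) and 0.30 per kb of peak (0.345).

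Areg and Il6 held few regions. The region over the Areg start (chr5:91138806-91140198) was at 22.8, 24.3 and 31.9 tags in cKO-labelled libraries and at 36.2, 24.8 and 24.0 in WT libraries, with overlap (log2 change 0.25, limma adjusted p = 0.507, and -0.09 unscaled). A region centred at -29230 bp from the Areg start (chr5:91109882-91110855), nearest to Ereg, was at 15.9, 18.6 and 20.9 in cKO-labelled libraries and at 32.1, 29.5 and 31.5 in WT libraries. All cKO-labelled libraries were lower there, as they were for Areg RNA (log2 change -0.35, adjusted p = 0.325). The region over the Il6 start (chr5:30012801-30013641) was called in 5 lists, at 10.7 in cKO replicate 1 and 6.84 in cKO replicate 3, and at 15.9, 14.2 and 15 in WT libraries. It was not tested, since cKO replicate 2 had no peak there.

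**Figure D4:**
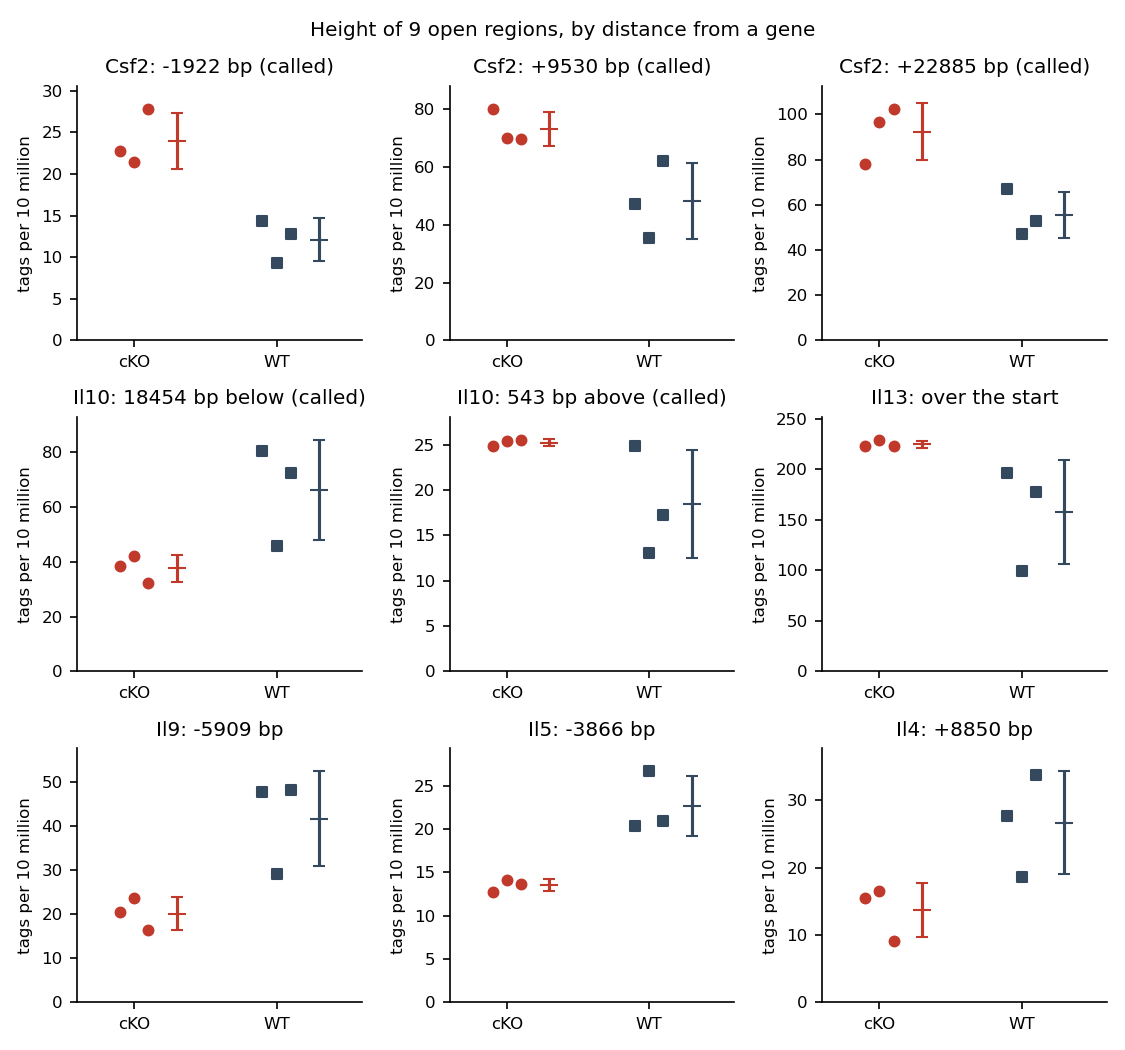
Height of 9 open regions in tags per 10000000 (vertical axes from 0), titled by distance from the start of the named gene (negative upstream) or, for Il10, from its ends, with cKO-labelled libraries as circles and WT libraries as squares. Bars are mean ± SD (n = 3 each). "Called" marks an adjusted p under 0.05 in limma. The 3 Csf2 regions and the Il13 region are higher in every cKO-labelled library, and the Il9, Il5, Il4 and lower Il10 regions are lower in every cKO-labelled library.

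Summed over whole windows, less DNA was covered by peaks around Il10 in the cKO-labelled libraries, at 9857, 10905 and 8041 bp, against 15740, 14262 and 13224 bp in WT libraries. That is 0.666 times the WT mean, and the summed tags there were 0.674 times the WT mean, at 282, 297.2 and 253.7 in cKO-labelled libraries and 490.3, 338.6 and 407.4 in WT libraries. Over the genome the same ratios were 0.839 for covered length and 1.04 for tags. Around Il3 and Csf2 the covered length was 0.811 times and the tags 1.12 times the WT mean. Around Areg the ratios were 0.721 and 0.69, and around Il6 0.476 and 0.376, from 1 to 3 peaks per library. The Th2 locus had ratios of 0.965 and 1.15 and Il9 of 1.22 and 0.94, with overlap. In 24 two-sided exact permutation tests of such measures the smallest p was 0.1, the lowest that 3 against 3 libraries allow, with an adjusted p of 0.218.

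**Figure D5:**
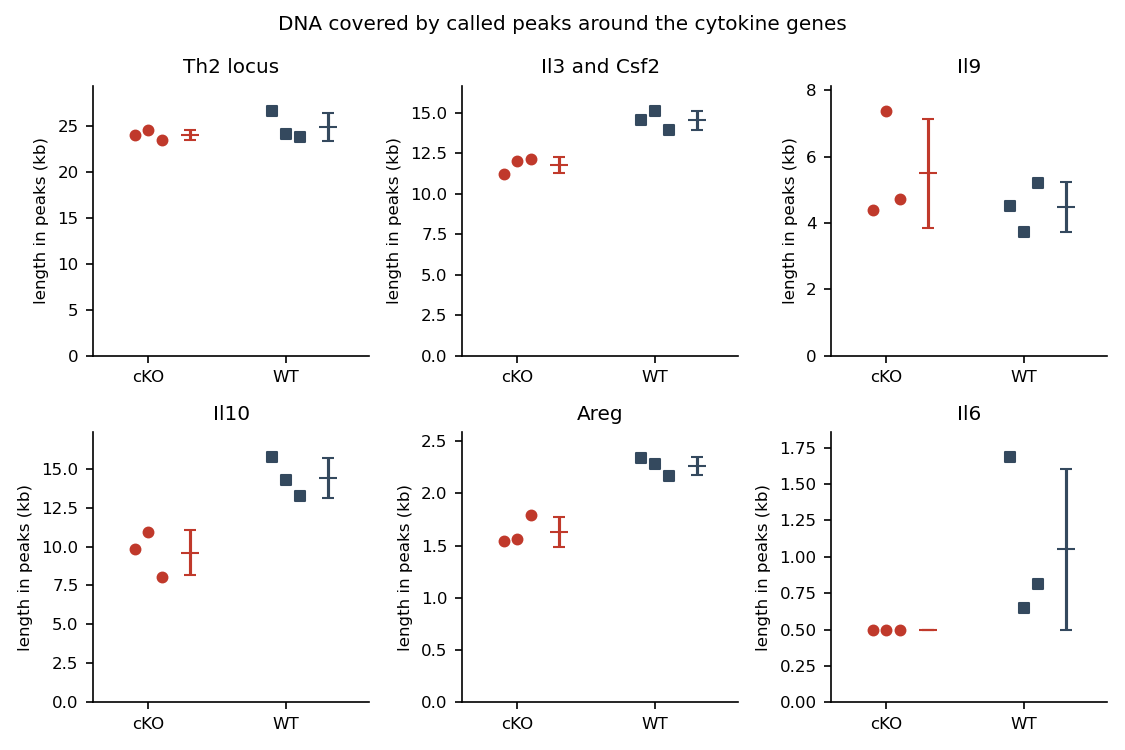
Length of DNA covered by called peaks in kb (vertical axes from 0, a separate scale per window) around the cytokine genes, with cKO-labelled libraries as circles and WT libraries as squares, and mean ± SD (n = 3 each). The cKO-labelled libraries lie below all WT libraries around Il3 and Csf2, Il10, Areg and Il6, and the groups overlap at the Th2 locus and at Il9.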

How the data were processed

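Libraries were grouped by genotype label. Per the submitters' processing notes, Bowtie2 2.3.5.1, HOMER 4.11, RSEM 1.3.3, STAR, edgeR, DESeq2 and mm10 were used, with no role or setting stated. The deposited RNA signal is the authors' normalized count per gene, and the authors' log2 fold change (cKO over WT) and p-value stand beside it. Whole reads were not recovered, since 40.6% to 65.2% of low values lay within 3% of a multiple of the commonest step, so raw depth is unknown. Per the file headers, the ATAC lists were called by HOMER per library at a Poisson p of 0.001 with at most 1 tag per bp. Per the file headers, their tag count is a signal per 10000000 tags, their score is HOMER's unscaled tag number per peak, and their region size is a length in bp.

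RNA values, after adding a pseudocount of 1 and taking log2, went into limma 3.58.1 (R 4.3.3) with the trend option, and p-values were adjusted by Benjamini-Hochberg over all tested genes. ATAC regions were merged, quantile normalized and tested likewise, using Python 3.11.15, pandas 2.3.3 and numpy 2.4.6. Quantile normalization was taken because an earlier result of these files showed changes that went with peak height when medians were subtracted. Exact tests went through all 20 arrangements of the libraries in Python, and figures used matplotlib 3.10.9. The fits were also run on simulated data with planted changes and independent noise, which modelled no outlying library and no sex difference. The members and the gene lists were chosen with earlier results of these data known. Named were all members, up to 4 genes of the smallest p per list, the 3 genes most like each member, called regions and the tallest of each window. Regions at member starts, at Rad50, in the Th2 locus and at Il9, Il10 and Areg that this rule does not give were named after their values were seen, as were Rad50, Gata3, Il9r, Nfe2l2, Ddx3y and the markers. Alternatives were other pseudocounts, filters, scalings, variance models, overlaps, flanks, peak numbers, the replicate number as a block and each library left out.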

Additional observations from a re-analysis of the deposited data

How the results depend on the processing

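Il13, Areg, Il3 and Csf2 kept a negative change under every RNA setting run, and Il9, Il10 and Il6 under each that tested them, which a minimum mean of 50 did not. The number of members that passed in limma, 0, became 1 by the authors' adjusted p (Il13, log2 change -0.96) and 0 to 1 when single libraries were left out (Il9 without WT replicate 1, -3.67). Over all genes the 37 called became 5 with a pseudocount of 0.1, 68 with 10, 6 without the mean-variance trend and 526 by the authors' adjusted p, and 1 to 150 with a library left out. Over all ATAC regions the 2681 called became 11223 with medians subtracted, 4741 for summed tags, 833 per kb of peak and 432 in the top 40000 peaks of each list, and 377 to 2096 with a library left out. The 5 cytokine regions called became 17 with medians subtracted (14 higher and 3 lower), 8 unscaled (2 higher and 6 lower), 8 for summed tags, 2 per kb of peak, 1 in the top 40000 peaks, 3 with 10 kb flanks and 0 to 4 with a library left out. Of all regions, 28.0% passed as higher and 5.48% as lower with medians subtracted, and 1.37% and 9.03% unscaled. The shares were 6.81% and 7.33% for summed tags, 0.928% and 1.56% per kb of peak, and 1.93% and 1.90% in the top 40000 peaks. The median change of all regions was 0.16 with medians subtracted, -0.15 unscaled and 0.02 after quantile normalization. The cause of these moves was not tested.

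Some regions changed sign with the setting. The region between Il4 and Il13 (chr11:53626696-53628414, -0.01) was at 0.087 with cyclic loess and ran from -0.35 to 0.57 with a library left out, turning without cKO replicate 3, WT replicate 1 or WT replicate 3. In Rad50, chr11:53650555-53651990 (0.12) was at -0.12 unscaled and -0.094 per kb of peak, chr11:53662829-53663819 (0.43) at -0.082 per kb, and chr11:53654780-53657489 (-0.42) from -0.75 to 0.039 with a library left out, turning without WT replicate 2. The Csf2 start was at 0.18, 0.048 and 0.28 with medians subtracted, for summed tags and per kb, and from -0.096 to 0.10 with a library left out, turning without cKO replicate 2 or WT replicate 2. The tall region past Il9 was at -0.072 for summed tags and -0.50 per kb, the Areg start at -0.092 unscaled and the region over Il10 at 0.30 per kb.

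The labels do not say that the replicate number pairs libraries, so it was no main block. Deviations of same-numbered libraries of the genotypes had r = 0.12, 0.21 and -0.06 in RNA, and -0.02, -0.01 and 0.00 in ATAC. Between libraries of different number r ran from -0.27 to 0.22 in RNA. With the replicate block 122 genes, 0 members, 2141 regions and 3 cytokine regions were called, both Il10 regions missing the threshold at changes of -0.61 and 0.86 (adjusted p = 0.0609 and 0.0586). Il4, Il5 and Il10 RNA and the peaks at the Il6 and Il9 starts are low, and raw RNA depth is unknown.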
